A study of Mus musculus with 10 samples.

Results

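Cytosolic ribosomal protein genes encode the proteins of the large and the small subunit of the ribosome that translates nuclear-encoded mRNAs. They were taken as every gene symbol of the form Rpl or Rps followed by a number (with an optional a or x), Rplp followed by a digit, or Rpsa, with at least 100 UMIs over the 10 libraries, where UMIs (unique molecular identifiers) count captured RNA molecules. The pattern found 76 of the 34254 genes in the deposited matrices, 46 of the large subunit and 30 of the small subunit, and all 76 passed the limit. Rpl22 held the fewest UMIs (11610), so the limit removed none of them.

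The cells were retinal ganglion cells (RGCs), the neurons whose axons form the optic nerve, from 129S1/SvImJ mice of both sexes at 12 weeks of age. RGCs of uninjured retinas (6 libraries, 1683 cells) were compared with RGCs taken 2 weeks after optic nerve crush (ONC), an injury that severs their axons (4 libraries, 1188 distinct cell barcodes, a number that differs from the count of injured cells in the paper's methods). Each batch pooled 10 retinas and was enriched by Thy1 immunopanning, so a library is a pool of animals and p-values measure the spread between pools. Total UMIs ranged from 2839693 to 23180399 in uninjured and from 4698799 to 8860536 in injured libraries.

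Injured libraries 3 and 4 shared 421 of their 527 and 471 barcodes and were averaged (injured 3/4), so that 6 uninjured were compared with 3 injured samples. Uninjured 2 and 4 shared 1 barcode, and no other pair shared any. Uninjured 5 and 6 stood apart from the other uninjured libraries, with 20437 and 21977 UMIs in the median cell, against 27732 to 34337. The transcript of the mCherry reporter was at 0 CPM (UMIs of a gene scaled to the same total in every sample) in the uninjured libraries, at 79.5 and 343 CPM in injured 1 and 2, and at 2153 and 2046 CPM in injured 3 and 4, although the labels of the injured libraries name no vector. The RGC markers Rbpms, Slc17a6, Sncg and Tubb3 were detected in every library, but their levels moved apart. Rbpms was at 596 to 801 CPM in uninjured and 269 to 332 CPM in injured libraries and Sncg at 1496 to 3130 and 737 to 1404 CPM, whereas Tubb3 was at 393 to 747 and 920 to 1806 CPM. Slc17a6 overlapped between groups (344 to 494 and 419 to 545 CPM).

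The small subunit reads the mRNA and the large subunit joins amino acids. The proteins of both are needed to build a ribosome on its ribosomal RNA. Ribosomal protein mRNAs of vertebrates typically begin with a C and an unbroken run of pyrimidines, the terminal oligopyrimidine (TOP) form, through which the TOR kinase and the RNA-binding protein Larp1 adjust their translation. In neurons, ribosomes and ribosomal protein mRNAs are present in axons as well as in the cell body, and translation capacity is one of the properties studied in axon regeneration.

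Ribosomal protein mRNAs took a larger share of all UMIs after ONC. Their summed share was 2.93% in the lowest uninjured sample, 3.38% at the median and 3.85% in the highest, against 5.14%, 5.74% and 4.67% in injured 1, 2 and 3/4. The injured samples all lay above the uninjured samples. The mean was 3.35% ± 0.353 (SD, n = 6) in uninjured and 5.19% ± 0.538 (SD, n = 3) after injury. The difference of 1.84 percentage points is a description and was not tested. Counted over single cells, the median share of a library was 2.38% to 4.24% in uninjured and 5.12% to 5.87% in injured libraries.

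**Figure D1:**
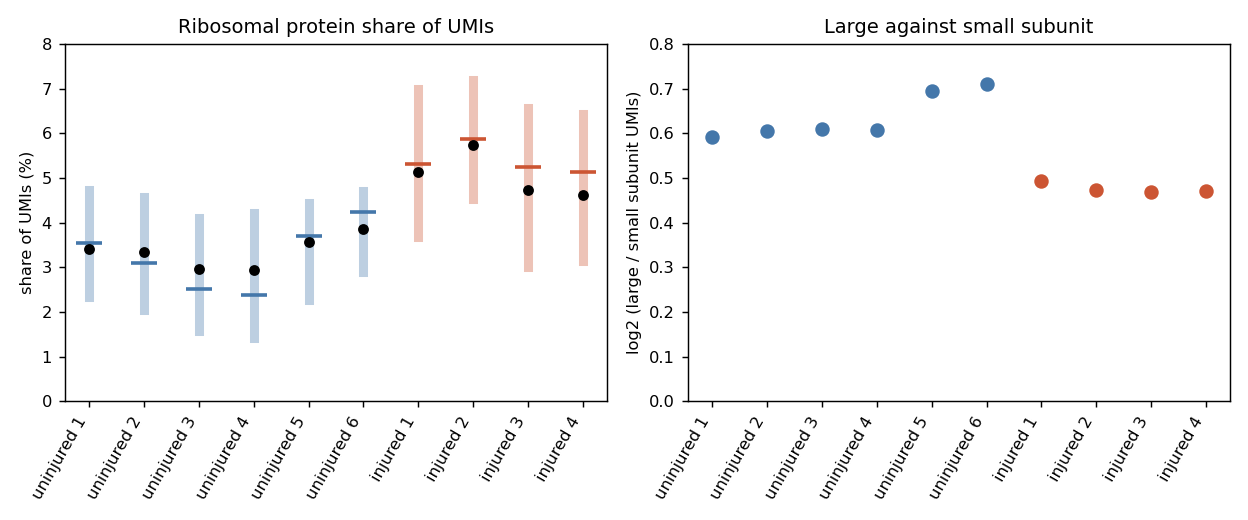
Left, share of UMIs (%) from the 76 ribosomal protein genes in each library, as the share of summed UMIs (black points) and as the median (line) and quartiles (bar) over cells; right, log2 ratio of large to small subunit UMIs. Injured libraries (orange) lie above uninjured libraries (blue) on the left and below them on the right.

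The number of ribosomal protein UMIs in a cell was not higher. The median cell held 747 to 1262 of them in uninjured samples (mean 893 ± 193, SD, n = 6) and 649 to 872 in injured samples (mean 780 ± 117, SD, n = 3), and the ranges overlapped. UMIs of all other genes numbered 26698 ± 5433 in the median cell of uninjured and 13194 ± 992 in that of injured samples (SD, n = 6 and 3), without overlap. A change in ribosomal protein mRNA and a change in the rest of a cell's captured RNA cannot be told apart from shares. With cells under 8000 UMIs left out and the others thinned to 8000, the median share was 3.21% ± 0.706 (SD, n = 6) in uninjured and 5.5% ± 0.366 (SD, n = 3) in injured samples. More cells were lost from injured libraries. The limit kept 253 of 267 cells in uninjured 5 and 644 of 651 in uninjured 4. It kept 251 of 273 in injured 2 and 359 of 471 in injured 4.

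Other measures moved along with the share. The nuclear RNA Malat1 made up 1.72% to 4.88% of UMIs in uninjured and 6.09% to 7.98% in injured samples without overlap, and where Malat1 made up 3 to 5% of a cell's UMIs the ribosomal protein share was 2.90% ± 0.463 against 5.11% ± 0.920 (SD, n = 6 and 3). Uninjured 5 and 6 held only 7 and 8 such cells, against 278 in uninjured 4, so their values in that comparison rest on few cells. Mitochondrially encoded transcripts were at 2.84% to 5.69% and 2.03% to 3.87%, and these ranges overlapped. Markers of Müller glia did not move together: Clu (70.8 to 121 CPM in uninjured, 183 to 318 CPM in injured libraries), Glul (37.4 to 49.7 and 73.7 to 89.0 CPM) and Rlbp1 were higher in every injured library, whereas Apoe was at 2.64 to 16.8 and 1.24 to 2.98 CPM and Aqp4 and Slc1a3 were not higher. The part of glial RNA in the result was not tested. The 7 microglia and macrophage markers summed to between 5.10 and 19.2 CPM in all libraries.

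Some cells had few ribosomal protein UMIs. Cells below 1% made up 0.498% to 12.2% of cells in uninjured samples, 0.296% and 0.366% in injured 1 and 2, and 18.8% and 17.0% in injured 3 and 4. Over the cells of a library, the correlation of the ribosomal protein share with the Malat1 share ranged from -0.472 (103 cells of uninjured 2) to 0.0348 (527 cells of injured 3), values that share each cell's total as a denominator.

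Gene by gene, 52 of the 76 genes rose after ONC, 1 fell (Rpl29) and 23 did not pass the test (edgeR, Benjamini-Hochberg threshold 0.05), where 43.8% of all 14234 genes tested passed it, 21.3% rising and 22.5% falling. The median log2 fold change was 0.68 over the ribosomal protein genes and -0.03 over all genes tested. The fitted value was above 0 for 73 of the 76 genes and below 0 for Rpl29, Rps2 and Rpl3. CPM of every injured sample lay above every uninjured sample for 51 of the genes, against 19.2% of all genes tested, and below for 1, against 23.3%.

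**Figure D2:**
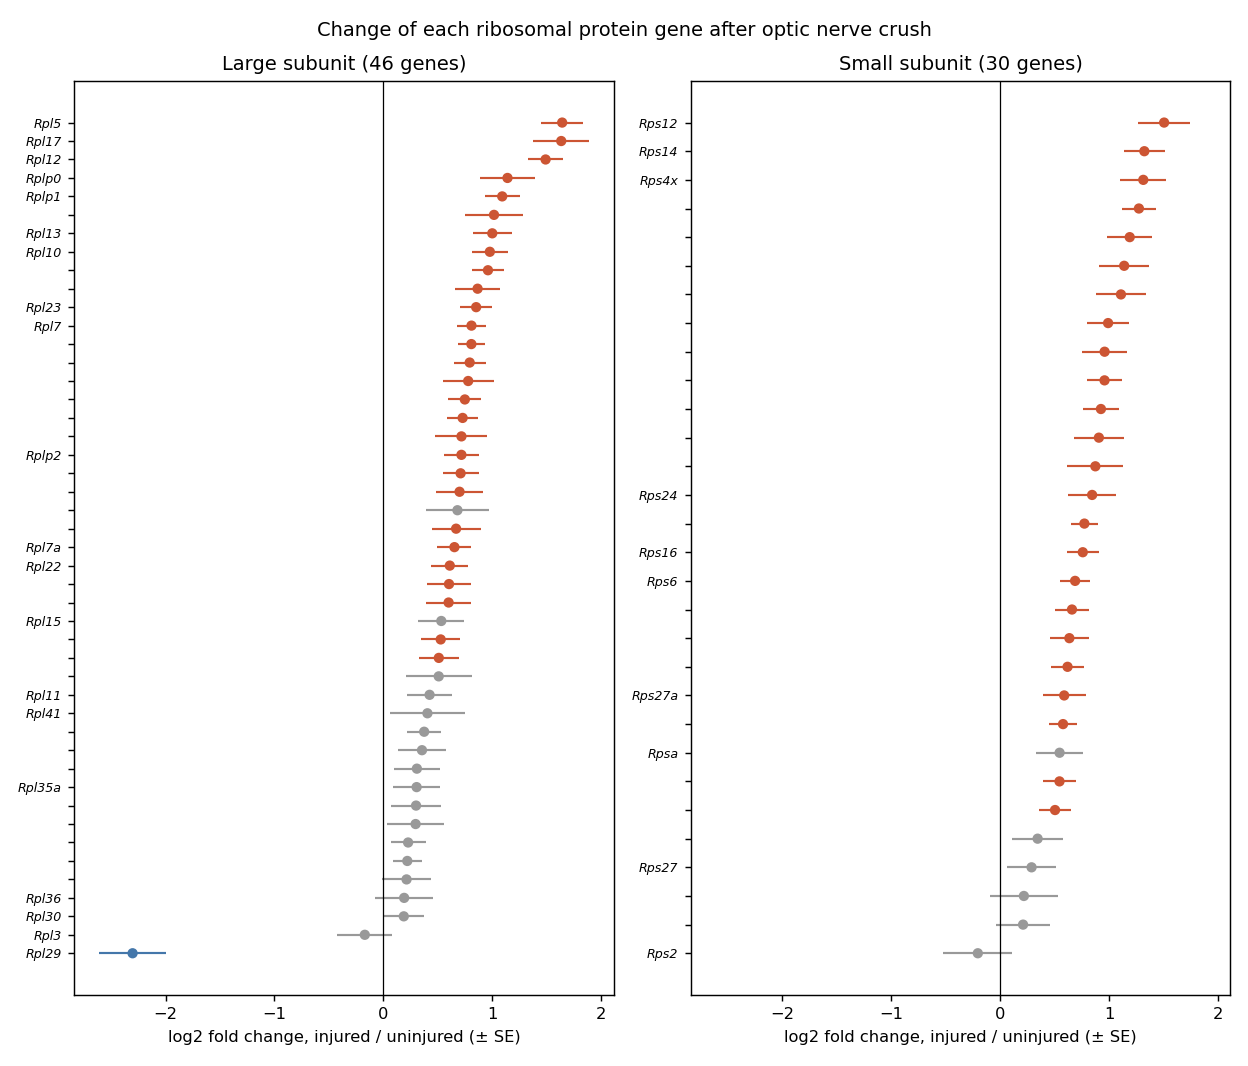
Log2 fold change (injured over uninjured, bars ± SE) of each ribosomal protein gene in edgeR's fit, by subunit, with the genes described in the text named. Orange genes rose (52), the blue gene fell (Rpl29) and grey genes did not pass the test (23).

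The count of genes that passed varied more than the size of the change when libraries were left out. With injured 1 and 2 as the injured samples 51 genes rose, where 17.9% of all genes tested rose (median log2 fold change of the 76 genes 0.73). With injured 3/4 as the only injured sample the median was 0.56, and with look-alike libraries summed to fewer units it was 0.65. These designs have 1 and 2 injured units. With the libraries summed 23 genes rose, where 13.3% of all genes tested rose. Injured 1 and 2 are also 2 injured units, and the cause of the lower count with summed libraries was not tested. Without uninjured 5 and 6, an alternative chosen after seeing the data, 70 genes rose (median 0.80), and the share of all genes tested that rose was also larger, 26.9%.

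The genes of the large subunit that rose most were Rpl5, Rpl17 and Rpl12. Rpl5, which binds 5S ribosomal RNA and with Rpl11 restrains Mdm2, was at 178, 271 and 293 CPM in the lowest, median and highest uninjured sample and at 592, 635 and 974 CPM in injured 1, 2 and 3/4. The highest value was that of injured 3/4, and the groups did not overlap. Its log2 fold change was 1.64 ± 0.19 (SE; adjusted p = 3.17e-05, edgeR, Benjamini-Hochberg), the largest of the 76. Rpl5 spans bases 108048367 to 108058471 of chromosome 5 in GRCm39, forward strand, and holds 3 small nucleolar RNA (snoRNA) genes.

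Rpl17, which lies at the exit of the tunnel through which the new protein leaves, was at 200, 419 and 495 CPM (lowest, median and highest uninjured sample) and at 1057, 1202 and 955 CPM in the injured samples. Rpl12, part of the base of the stalk that recruits translation factors, was at 182, 256 and 300 CPM and then at 656, 689 and 601 CPM. For both genes uninjured 5 and 6 were the lowest samples, and every injured sample was above every uninjured sample. The log2 fold changes were 1.63 ± 0.26 for Rpl17 and 1.49 ± 0.16 for Rpl12 (SE).

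The stalk itself is formed by Rplp0, Rplp1 and Rplp2, acidic proteins that bring elongation factors to the ribosome, and all 3 genes rose. Rplp0 was at 157, 196 and 305 CPM in uninjured and 461, 502 and 423 CPM in injured samples (log2 fold change 1.14 ± 0.25, SE). Rplp1 was at 507, 696 and 791 CPM and then at 1281, 1441 and 1269 CPM (1.09 ± 0.16). Rplp2 was at 329, 349 and 446 CPM and then at 545, 571 and 619 CPM (0.72 ± 0.16). The groups overlapped for none of the 3, and together they made up 3.27% to 4.11% of ribosomal protein UMIs in uninjured and 4.38% to 4.94% in injured samples.

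Among the most abundant large subunit genes, Rpl13 was at 699, 849 and 906 CPM in uninjured and at 1594, 1797 and 1303 CPM in injured samples, a log2 fold change of 1.00 ± 0.18. Rpl23 was at 594, 670 and 703 CPM and then at 1105, 1220 and 1053 CPM (0.85 ± 0.15). Neither gene overlapped between groups. Rpl10, which completes the large subunit near its catalytic centre, was at 230, 260 and 331 CPM and then at 499, 590 and 418 CPM (0.98 ± 0.16). Rpl7 and Rpl7a, proteins that assemble early on the large subunit, rose by smaller amounts, to 463, 538 and 575 CPM from 279, 323 and 334 CPM for Rpl7 (0.81 ± 0.14), and to 303, 348 and 356 CPM from 190, 235 and 248 CPM for Rpl7a (0.65 ± 0.16). Rpl22, the gene nearest to the limit of 100 UMIs, was at 106, 131 and 161 CPM in uninjured and 179, 194 and 208 CPM in injured samples (0.61 ± 0.17), without overlap.

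Rpl11, the partner of Rpl5 on 5S ribosomal RNA, did not pass the test. It was at 522, 591 and 775 CPM in uninjured and at 816, 935 and 670 CPM in injured samples, with injured 3/4 inside the uninjured range (log2 fold change 0.42 ± 0.21). Rpl41, which encodes the shortest of the proteins, was at 453, 568 and 1188 CPM and then at 1023, 1017 and 589 CPM (0.40 ± 0.34). Uninjured 6 was the highest of its 9 samples. Rpl30 and Rpl36 had log2 fold changes of 0.19 ± 0.19 and 0.19 ± 0.27 and overlapped between groups.

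In the small subunit, 24 of 30 genes rose (80%, against 21.3% of all genes tested) and none fell (against 22.5%). The other 6 did not pass the test, and the median log2 fold change of the 30 genes was 0.77. Rps12 was at 148, 287 and 349 CPM in the lowest, median and highest uninjured sample and at 692, 771 and 638 CPM in injured 1, 2 and 3/4. The groups were far apart, and uninjured 5 and 6 were again the lowest (log2 fold change 1.51 ± 0.24). Rps14, which lies at the platform of the small subunit, was at 254, 374 and 426 CPM and then at 656, 770 and 1072 CPM (1.32 ± 0.19). Rps4x, encoded on the X chromosome, was at 298, 406 and 487 CPM and then at 888, 1050 and 887 CPM (1.31 ± 0.21). Both were higher in each injured sample than in any uninjured sample.

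Rps24, among the most abundant genes of the small subunit, was at 656, 706 and 987 CPM in uninjured and 1331, 1583 and 1125 CPM in injured samples (log2 fold change 0.84 ± 0.22). Rps6, the protein that S6 kinase phosphorylates, was at 248, 301 and 356 CPM and then at 420, 488 and 460 CPM (0.69 ± 0.13). Neither overlapped between groups. Rps27a, made as a fusion with ubiquitin, passed the test (0.59 ± 0.20) although injured 3/4, at 874 CPM, lay just under the highest uninjured sample at 875 CPM.

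Rpsa and Rps27 did not pass the test. Rpsa, which is also known as a laminin receptor, was at 421, 601 and 690 CPM in uninjured and 818, 912 and 628 CPM in injured samples (log2 fold change 0.55 ± 0.22). Rps27 was at 238, 272 and 419 CPM and then at 376, 392 and 261 CPM (0.29 ± 0.22). In both genes injured 1 and 2 were the higher injured samples. Injured 3/4 lay within the uninjured range of Rpsa, and all 3 injured samples lay within that of Rps27.

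**Figure D3:**
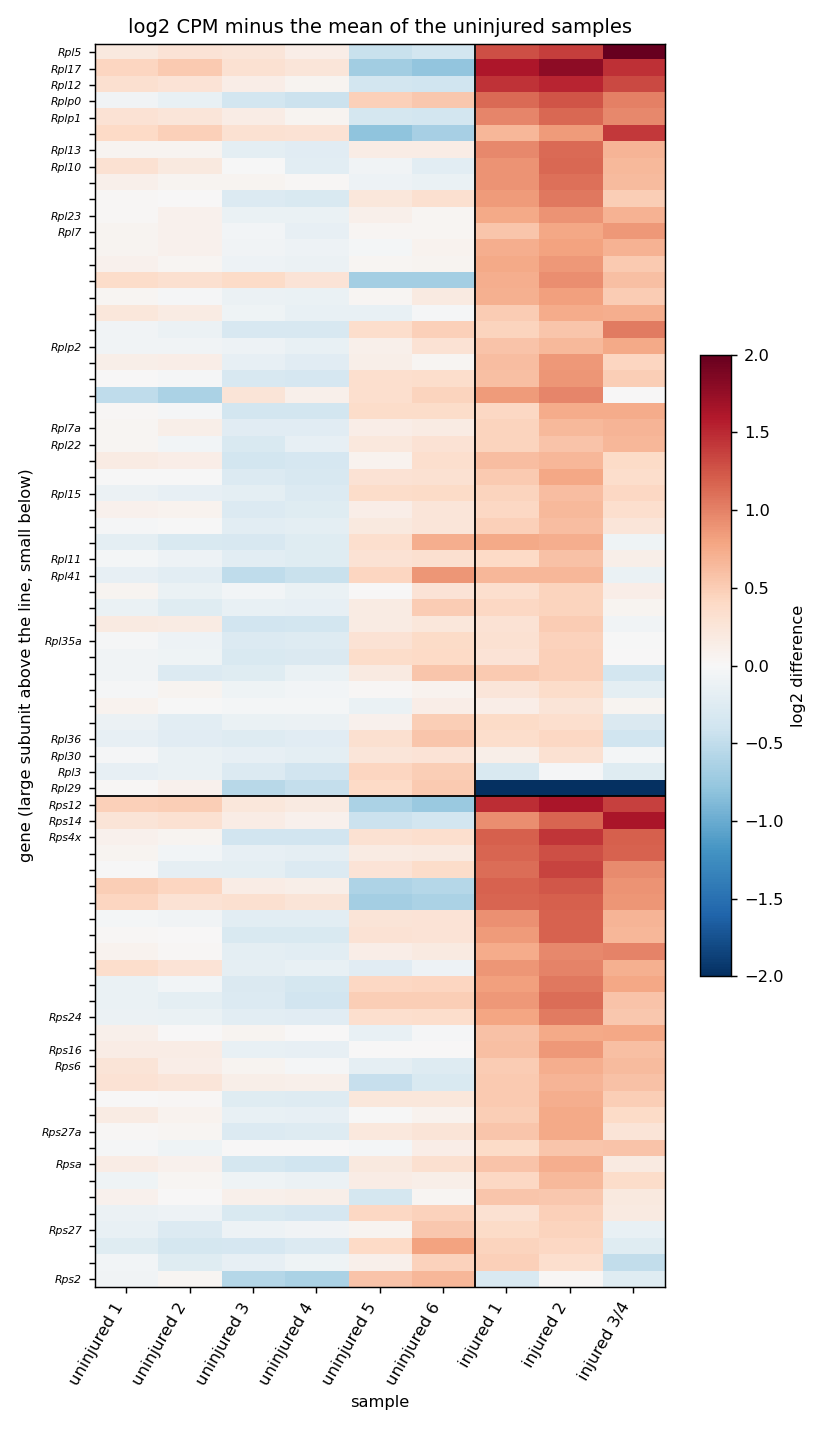
Log2 CPM of each ribosomal protein gene in each of the 9 samples, minus its mean over the uninjured samples (colour scale from -2 to 2), with the genes described in the text named. Most genes are red in the 3 injured columns, Rpl29 is blue there, and uninjured 5 and 6 differ from the other uninjured samples in both directions.

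Rpl29, a large subunit protein that also occurs at the cell surface as a heparin-binding protein, was the exception among the 76 genes. It was at 216, 329 and 458 CPM in the lowest, median and highest uninjured sample and at 67.1, 74.5 and 51.0 CPM in injured 1, 2 and 3/4. All injured samples lay far below all uninjured samples. Its log2 fold change was -2.30 ± 0.31 (SE; adjusted p = 0.000101, edgeR, Benjamini-Hochberg), and an exact permutation of the 9 samples gave a two-sided p = 0.0238, the smallest that 6 against 3 samples allow. Rpl29 spans bases 106306586 to 106311297 of chromosome 9 in GRCm39, forward strand.

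Rps2 and Rpl3 had fitted values below 0 and did not pass the test. Rps2, at the entry of the mRNA channel, was at 242, 374 and 595 CPM in uninjured and 305, 382 and 318 CPM in injured samples. Rpl3, which lies at the centre where peptide bonds form, was at 562, 662 and 1028 CPM and then at 591, 721 and 616 CPM. In both, the injured samples lay within the uninjured range and uninjured 5 and 6 were the highest. Without these libraries, an alternative chosen after seeing the data, the log2 fold change was 0.23 for Rps2 and 0.16 for Rpl3.

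**Figure D4:**
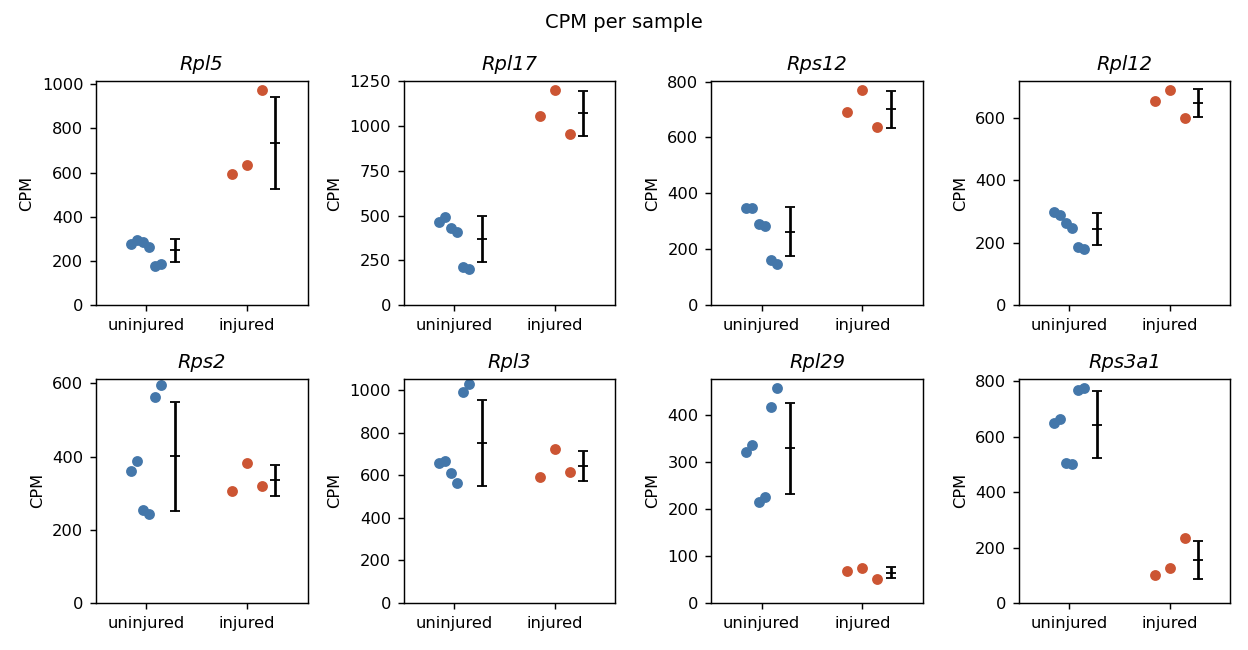
CPM in each sample (points, uninjured blue and injured orange) with mean ± SD (black) for 4 genes that rose, for Rps2 and Rpl3, and for Rpl29 and Rps3a1. Rpl29 and Rps3a1 are the genes whose injured samples lie below every uninjured sample.

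When counts were scaled to the summed UMIs of the ribosomal protein genes, a value became a change relative to the other ribosomal protein mRNAs, and the median over the 76 genes was -0.02. On this scale 8 genes were higher (Rpl5, Rpl17, Rpl12, Rps12, Rps4x, Rps15a, Rps20 and Rplp0), against 7.04% of all genes, and 9 were lower (Rpl29, Rps2, Rpl3, Rpl30, Rpl36, Rps29, Rpl37, Rpl31 and Rpl28), against 57% of all genes. The log2 differences on this scale ran from 0.93 for Rpl5 to -2.98 for Rpl29.

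The subunits were compared by the change of their genes and by their summed UMIs. The median log2 fold change was 0.66 over the 46 large subunit genes and 0.77 over the 30 small subunit genes, a difference of -0.11. Of the large subunit genes 28 rose (60.9%, against 21.3% of all genes tested) and 1 fell (2.17%, against 22.5%). The log2 ratio of summed large to small subunit UMIs was 0.59 to 0.71 in uninjured samples (mean 0.64 ± 0.052, SD, n = 6) and 0.47 to 0.49 in injured samples (mean 0.48 ± 0.012, SD, n = 3), without overlap. Uninjured 5 and 6 had the 2 highest ratios. Without them the ratio still did not overlap (0.59 to 0.61 in uninjured 1 to 4), whereas the difference of the medians was -0.00757. With limma-voom and sample quality weights the difference of the medians was -0.00301. Neither measure was tested.

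Coding length was set beside the changes, and no difference between lengths was tested. The coding length of the 76 genes ran from 75 bases in Rpl41 to 1257 bases in Rpl4, with a median of 454.5. Of the 9 genes under 300 bases 1 rose, and their median log2 fold change was 0.30. Of the other 67 genes 51 rose, with a median of 0.72, where 21.3% of all genes tested rose. The 9 genes held 11.4% to 17.1% of ribosomal protein UMIs in uninjured samples, 12.4% and 10.8% in injured 1 and 2, and 8.43% in injured 3/4. Uninjured 6 was the highest and injured 3/4 the lowest of the 9 samples. Across the 76 genes, which are not independent replicates, Spearman's rho between coding length and log2 fold change was 0.31 and Pearson's r was 0.12.

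**Figure D5:**
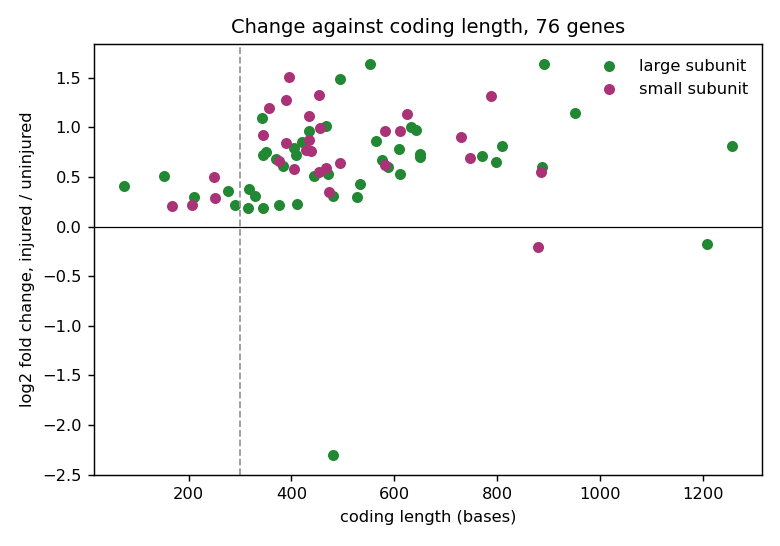
Log2 fold change (injured over uninjured) of the 76 ribosomal protein genes against coding length in bases, by subunit, with a dashed line at 300 bases. The 9 genes left of the line lie between 0.21 and 0.51.

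Other features of the genes were read from the GENCODE annotation of GRCm39. The 76 genes lay on 19 chromosomes, with 14 on chromosome 7. SnoRNA genes lay inside 29 of them, and 20 of these 29 rose (median log2 fold change 0.76). Of the 47 others 32 rose (median 0.67), where 21.3% of all genes tested rose. A near-identical copy of the coding sequence elsewhere in the genome (at least 98% identity over 150 bases, or over 80% of a shorter coding sequence) was found for 64 genes and none for 12. The genes without a copy had a median of 0.79 with 11 of 12 higher, and those with 1 to 3 copies a median of 0.68 with 22 of 35 higher. Those with 4 or more copies had a median of 0.65 with 19 of 29 higher, again beside 21.3% of all genes tested. Rpl29 had 7 such copies, Rps2 11, Rpl3 3 and Rpl17 10, and counts of genes with copies are uncertain because reads shared with a copy may have been split or dropped.

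The TOP form was looked for at the annotated starts because it is the sequence ribosomal protein mRNAs are known for. Of the 76 genes, 6 had a C followed by at least 4 pyrimidines at the first base of the canonical transcript (7.89%), against 4.17% of 12337 protein-coding genes tested, and 29 had it within 10 bases of that base (38.2%, against 32.7%). The source of the start changed this count, and 2 others were tried after seeing the first. CCDS principal transcripts gave 8 of 76 (10.5%, against 4.11%), and the RefSeq start table of GRCm38.p6 gave 12 of the 56 genes with an entry (21.4%, against 2.47%), but with entries for 73.7% of the genes that check is void. Of these starts 5 are shown from 10 bases before the first base to 20 bases from it, 5′ to 3′ on the gene's strand in GRCm39, with the pyrimidine run in capitals.
Rpl22 (chr4:152410140-152410169, forward): ctgactcctcCCTTTCCCgacagccgactt
Rps16 (chr7:28049972-28050001, forward): gagtccccacCCTCCgggtcccgcacagct
Rpl15 (chr14:4198703-4198732, forward): aagccttcttCCTTTCCTCTggcggcagcc
Rpl35a (chr16:32876635-32876664, forward): acgattttgcCTTTCCTTgttcctaaataa
Rps2 (chr17:24939072-24939101, forward): cggcgcctccCTCTTCTTCTTCTTCgggag
Rpl22 and Rps16 rose, and Rpl15, Rpl35a and Rps2 did not pass the test.

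Of 13 ribosomal protein genes and relatives outside the name pattern, 8 were tested, 2 rose (25%, near the 21.3% of all genes tested) and 1 fell (12.5%, against 22.5%). Rps3a1, a small subunit protein, was at 501, 656 and 775 CPM in the lowest, median and highest uninjured sample and at 102, 128 and 234 CPM in injured 1, 2 and 3/4. Like Rpl29 it lay below every uninjured sample in each injured sample, with a log2 fold change of -2.0 ± 0.29 (SE), and 5 near-identical copies of its coding sequence were found. Rack1, a scaffold on the small subunit, was at 124, 158 and 191 CPM and then at 386, 417 and 428 CPM (1.46 ± 0.14). Rps27l, a relative of Rps27 that p53 induces, was at 28.3, 30.1 and 50.3 CPM and then at 91.5, 96.8 and 118 CPM (1.59 ± 0.22). Both rose without overlap between groups.

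Fau, Rpl22l1, Rpl7l1 and Rpl36al did not pass the test. Rpl39l and Rpl3l held 11 and 8 UMIs in all, Rpl10l and Rps4l had 0, and Rpl26l1 was not among the gene names.

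Elongation factors and other mRNAs of the TOP class rose in 8 of 12 cases (66.7%, against 21.3% of all genes tested) and fell in none (against 22.5%), with a median log2 fold change of 0.46. Eef1a1, which delivers aminoacyl-tRNA, was at 711, 867 and 894 CPM in uninjured and 2199, 2415 and 3014 CPM in injured samples (log2 fold change 1.69 ± 0.17). Pabpc1, which binds poly(A) tails, was at 53.5, 57.5 and 69.2 CPM and then at 161, 166 and 183 CPM (1.59 ± 0.11). Neither overlapped between groups.

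Of 36 initiation factors 14 rose (38.9%, against 21.3% of all genes tested) and 1 fell (2.78%, against 22.5%), with a median of 0.28. Eif2s2, a subunit of the factor that carries initiator tRNA, had a log2 fold change of 1.39 ± 0.15 and Eif3b, a scaffold of initiation factor 3, of 1.21 ± 0.12, whereas Eif3j1 fell (-1.20 ± 0.17). Of 47 genes of ribosome biogenesis and polymerase I, 15 rose (31.9%, against 21.3% of all genes tested) and 1 fell (2.13%, against 22.5%), with a median of 0.26. Rrp12, which acts in export of ribosomal subunits, rose from 4.52 ± 0.937 to 16.8 ± 2.62 CPM (SD, n = 6 and 3), and Nop14, which acts in small subunit processing, from 28.2 ± 6.55 to 55.6 ± 1.72 CPM. Ubtf, the polymerase I factor, fell by 0.39 on the log2 scale.

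In the TOR pathway and among regulators of TOP mRNAs, 5 of 18 genes rose (27.8%, near the 21.3% of all genes tested) and 2 fell (11.1%, against 22.5%), with a median of 0.26. Eif4ebp1, the repressor of cap-dependent initiation that TOR inactivates, was at 0.704, 1.11 and 1.71 CPM in uninjured and 54.6, 50 and 54.7 CPM in injured samples (log2 fold change 5.57 ± 0.18; adjusted p = 2.47e-09, edgeR, Benjamini-Hochberg). Myc, a transcription factor for genes of ribosome biogenesis, was at 1.10, 1.73 and 3.87 CPM and then at 18.9, 15.3 and 39.0 CPM (3.66 ± 0.42). Its relative Mycn fell by 1.29 and Tsc2, a brake on TOR, by 0.68 on the log2 scale. Tsc1, added beside Tsc2 although the naming rule does not pick it, rose by 0.81.

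Mitochondrial ribosomal protein genes, whose products form the separate ribosome of mitochondria, did not share the rise. Of 77 genes 6 rose (7.79%, against 21.3% of all genes tested) and 11 fell (14.3%, against 22.5%), and their median log2 fold change was -0.08, beside -0.03 over all genes tested. Mrps12 and Mrpl55 fell most among those that fell (by 1.27 and 1.11 on the log2 scale), and Mrpl24 and Mrpl33 rose most (0.72 and 0.64). Among 17 nuclear and mitochondrially encoded RNAs 2 rose (11.8%, against 21.3% of all genes tested) and 5 fell (29.4%, against 22.5%). Their median log2 fold change was -0.46, with 13 of 17 values below 0, and whether RNA quality differed between the groups was not tested. Malat1 and Neat1 rose (1.19 and 1.95), and mt-Atp8 and mt-Nd4l fell by 3.55 and 2.62.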

How the data were processed

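Raw UMI counts per gene and cell were deposited by the authors for cells selected as RGCs, without normalization. The submitters' processing notes name Cell Ranger 7.0.1 and mm39 (GRCm39). The labels name the v3 reagent kit, a NovaSeq sequencer and depletion of macrophages, whereas the paper's methods name the v2 kit, a HiSeq sequencer, an earlier Cell Ranger release and depletion of amacrine cells as well. Library sums of the deposited counts were made in Python 3.11.15 (numpy 2.4.6, pandas 2.3.3), and injured 3 and 4 were averaged with rounding. CPM used the total UMIs of a sample. Sums were fitted in R 4.3.3 with edgeR 4.0.16 (filterByExpr, TMM, robust quasi-likelihood, condition alone, Benjamini-Hochberg over all genes tested, threshold 0.05), and log2 fold changes are on the TMM scale, with SE from the fold change and the F statistic. On simulated counts of 13896 genes edgeR found 69 of 101 genes changed by a log2 fold of 1 and 92 of 92 changed by 2, and 4.17% of its calls were false. The simulation gave every gene the same spread and drew its samples independently, with few changed genes. In the data 43.8% of genes tested passed, so this rate of false calls need not hold there. No test was made of sums or medians over the genes.

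The genes and lists were chosen with earlier results of these data known. Named genes were the 5 highest and 5 lowest log2 fold changes, the 3 most abundant genes of each subunit, 15 fixed names, the gene nearest to the UMI limit, listed relatives outside the pattern, and the 2 largest rises and 2 largest falls of each other list; genes named with the pyrimidine starts or the scaled counts follow from those results. Not every gene that the rule names is printed. Alternatives were DESeq2 1.42.0, limma-voom (limma 3.58.1), other scalings, filters and sets of cells, each sample left out, similar libraries summed, single injured pairs, and libraries 1 to 4 with a replicate block. Doublets were not called again, since the authors limited UMIs per cell before deposit. Coding sequences were searched in the genome with blastn 2.17.0.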

Additional observations from a re-analysis of the deposited data

Results flagged for a closer look

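Among 62 values examined in the 6 uninjured samples, 2 had a sample far from the others (Dixon's criterion at 5%), where chance gives about 1 in 20. Uninjured 2 had the highest median of ribosomal protein UMIs per cell, 1262, with a gap of 0.651 of the range. Uninjured 6 had the highest Rps27 level, 419 CPM, with a gap of 0.66 of the range. The causes were not tested.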

How the results depend on the processing

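Of the 76 genes, Rpl29 was the 1 gene lower in every setting that was run on the scale of all UMIs. With similar libraries summed, 23 genes were higher (median log2 fold change 0.65). With 1 sample left out the count was 38 to 59 (38 without injured 2, 59 without uninjured 6). In the other settings on this scale with more than 1 injured unit it was between 51 and 73. Injured 3 and 4 alone leave 1 injured unit, and the median was then 0.56. The share of all genes tested that rose moved as well: it was 21.3% in the fit of the 9 samples, 28.9% with limma-voom (73 genes higher), 17.5% without injured 2 and 21.7% without uninjured 6. The settings with 23 and 15 have 2 and 1 injured units. Injured 1 and 2 alone are also 2 injured units, and the count was then 51. The cause of the lower counts was not tested, and no conclusion is drawn from a count with 1 injured unit. The median log2 fold change was 0.87 and the rise in share 2.21 percentage points where Malat1 made up 3 to 5% of a cell's UMIs, and the rise was 1.33 with injured 3 and 4 alone. With 1 sample left out these were 0.61 to 0.73 and 1.56 to 1.94. The large minus small subunit difference was -0.15 with injured 3 and 4 alone, -0.00301 with limma-voom, -0.00757 without uninjured 5 and 6 and -0.151 to -0.0723 with 1 sample left out. Scaling to totals alone moved the median of all genes to -0.10 and that of the ribosomal protein genes to 0.61. The pyrimidine start was found in 6 of 76 genes at the canonical starts and in 8 of 76 with CCDS principal transcripts. The RefSeq table gave 12 of 56 genes, but that check is void, with entries for 73.7% of the genes.

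Labels share the numbers 1 to 4 between groups, but same-numbered libraries did not deviate together (r from -0.053 to 0.00789) and no library matched its own number best. In libraries 1 to 4, where injured 3 and 4 count as separate samples although they share 421 barcodes, so that the number of injured samples is overstated, the count was 67 without and 65 with the replicate block (29.3% and 27.7% of all genes tested rose), and the large minus small difference -0.0148 and -0.0297.

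Sign changes were listed only for the genes chosen by the naming rule. Values changed sign for Rpl3 (0.11 with limma-voom, 0.13 in cells with 3 to 5% Malat1, 0.13 and 0.12 in libraries 1 to 4 without and with the replicate block, 0.16 without uninjured 5 and 6) and for Rps2 (0.21, then 0.19, 0.21 and 0.23 in the same settings other than Malat1). With injured 3 and 4 alone they did for Rpl36 (-0.40), Rpl30 (-0.00485), Rpl41 (-0.20), Rps27 (-0.13) and Rpl22l1 (-0.284). CPM of injured 3/4 was below every uninjured sample for Rpl36 (269), Rps29 (468), Rpl38 (436), Rpl37 (480) and Rpl28 (384). The fitted values of these genes over the 9 samples were above 0. Rpl22l1 was also at -0.0280 with 10 libraries as samples (injured 3 and 4 again separate), -0.0331 with similar libraries summed and -0.0847 to 0.283 with 1 sample left out. The cause of these changes was not tested. Scaling to ribosomal protein UMIs lowers all genes alike (median of all genes from -0.03 to -0.74, of the ribosomal protein genes from 0.68 to -0.02), so small positive values turn negative by construction: the values were -0.50 for Rpl36, -0.51 for Rpl30, -0.11 for Rps27a, -0.0340 for Rpl7a, -0.27 for Rpl11, -0.0665 for Rpl22, -0.26 for Rpl41, -0.0354 for Rps6, -0.41 for Rps27, -0.15 for Rpsa, -0.13 for Fau, -0.60 for Rpl22l1, -0.52 for Rpl7l1, -0.24 for Rpl36al and -0.0434 for Mrpl33.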
